A study of Mus musculus with 12 samples.

Results

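The whole osteogenic phase of a pellet culture was examined by comparing day 28 (D28) with day 7 (D7). Members were the libraries that the labels place at these time points, D7 replicates 1 to 3 and D28 replicates 1 to 3, which are 6 of the 12 libraries of the series. Every library was made from C57/BL6 mouse cells, taken with collagenase D from the ends of femurs and tibiae of pups aged 5 or 6 days, and then pelleted. D7 pellets had spent 7 days in chondrogenic medium and 0 days in osteogenic medium, and D28 pellets had spent those 7 days in chondrogenic medium followed by 21 days in osteogenic medium. The labels name no transgene or added drug and do not list what the media contain, nor whether pups were pooled. D28 therefore differs from D7 in medium and in culture age at the same time, and these cannot be told apart. The comparison asks what had changed between the end of cartilage priming and the endpoint of the osteogenic treatment. Polyadenylated RNA was sequenced, and the remaining libraries, at D8 and D10 after 1 and 3 days in osteogenic medium, serve here as points in between.

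Endochondral bone forms on a cartilage template. Chondrocytes multiply, lay down a matrix of type II collagen and aggrecan, enlarge as hypertrophic chondrocytes that make type X collagen, and then die, or take part in bone formation as osteoblasts, which make type I collagen and osteocalcin. Hedgehog, BMP, Wnt, FGF and TGF-beta signals set the pace of these steps, and skeletal progenitors can also form fat, tendon or fibrous tissue.

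The values are log2 of an equalized read count plus 1, in which each library shares nearly the same set of sorted values. A difference is therefore a difference of rank within the library, and it is given as a log2 fold change with its standard error (SE). A gene was called when its log2 fold change was at least 1 in either direction and the Benjamini-Hochberg adjusted p of limma was under 0.05. All p-values below are of this kind, and since nothing states that the replicates are separate cultures or animals, they measure the spread between these libraries. The file lists 28244 genes, of which 17674 passed a filter on low values (1 or more on the log2 scale in 3 or more libraries) and were tested. Of these, 1526 (8.63%) were higher and 1531 (8.66%) were lower at D28, 17.3% in all, and the median of all tested genes was -0.03. With genes at the read floor counted at their bound, 37 of the called genes rose and 26 fell by at least 5 on the log2 scale. The D7 libraries and the D28 libraries did not overlap for 8286 tested genes (46.9%), and for 1500 of the called rises and 1490 of the called falls. Among the called genes, 276 had no more than 3 reads in any D7 library and 167 had no more than 3 reads in any D28 library, and for such genes a lower bound of the fold change is given. Between libraries of the same time point the correlation across genes was at least 0.98, and between D7 and D28 it was at most 0.94. Read levels were inferred: the lowest distinct value above 0 in a library was taken as 1 read, and so on up to 3 reads. This 1-read level was 0.59 on the log2 scale in D28 replicate 1, 0.87 in replicate 2 and 0.50 in replicate 3. At D7 it lay between 0.74 and 1.37.

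**Figure D1:**
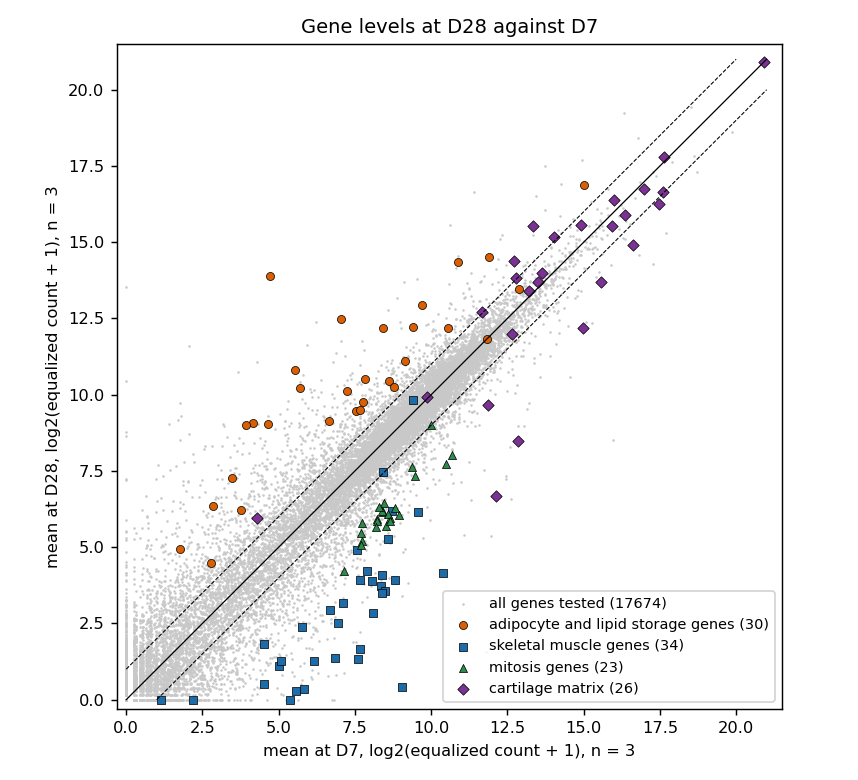
Mean level of each tested gene at D7 (x axis) and D28 (y axis), both as log2(equalized count + 1) with n = 3 per time point; the solid line marks equal levels and the dashed lines a log2 fold change of 1. Of the adipocyte genes 28 of 30 were called higher, of the skeletal muscle genes 31 of 34 and of the mitosis genes 22 of 23 were called lower, and cartilage matrix genes on both sides.

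Some cartilage matrix genes kept high levels in the D28 libraries. Col2a1, the type II collagen gene, was the highest gene of each D7 and each D28 library at 20.92, the ceiling of the scale, so no change of it could be read. Acan, which encodes aggrecan, stood at 17.65, 17.65 and 17.56 at D7 and at 17.82, 17.56 and 18.02 at D28, and these libraries overlapped. Of 26 cartilage matrix genes tested, 5 were higher and 7 lower at D28, with a median log2 fold change of 0.02 (-0.13 without D7 replicate 2). Ucma, a matrix protein of the upper growth plate, rose from 13.69, 12.99 and 13.31 to 15.52, 15.62 and 15.47 (log2 fold change 2.21, SE 0.22, adjusted p = 1.5e-06). Prelp, a leucine-rich matrix protein, rose by 1.68 (SE 0.22). Cnmd, encoding the vessel-inhibiting chondromodulin, rose by 1.15 (SE 0.16). The calls of Matn1 (matrilin 1) and Snorc, a chondrocyte proteoglycan, rested on single libraries: without D28 replicate 1 their log2 fold changes were 0.68 and 0.80 and the list had 3 rises in place of 5. Matn1 was also short of the threshold without D7 replicate 3 (0.96), and Snorc without D7 replicate 2 (0.98).

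The falls in the same list included articular cartilage genes. Cilp2, a cartilage intermediate layer protein, stood at 12.28, 11.90 and 12.18 at D7 and at 6.37, 6.93 and 6.72 at D28 (log2 fold change -5.45, SE 0.16, adjusted p = 5.2e-12). Its paralog Cilp fell by 4.37 (SE 0.25). Prg4, the joint lubricant lubricin, went from 14.73, 15.11 and 15.11 to 12.90, 11.73 and 11.96 (log2 fold change -2.79, SE 0.23, adjusted p = 2.1e-07). Chad, encoding chondroadherin, fell by 1.88 (SE 0.28), and the collagen genes Col9a1 and Col11a1 fell by 1.71 (SE 0.19) and 1.22 (SE 0.23). Of 12 tendon, ligament and articular markers, 7 were lower and 1 was higher. The transcription factors Scx and Mkx of tendon cells fell by 2.25 (SE 0.22) and 2.48 (SE 0.20), and Erg and Gdf5, which mark joint cells, by 1.66 (SE 0.15) and 2.20 (SE 0.20). Tnmd, the tendon protein tenomodulin, was the member that rose, by 1.45 (SE 0.33). Summed unlogged levels of this list ran from 41790 to 48410 at D7 and from 8258 to 13040 at D28, and without Prg4 from 12630 to 14630 and from 4704 to 5415.

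The balance of the cartilage list against D7 hid a low point at D10. Against D10, 17 of the 26 cartilage genes were higher at D28 and 3 were lower, where 13.8% and 13.7% of all tested genes were called in those directions. These comparisons share the D28 libraries. Matn3 illustrates the pattern in its means, with 12.66 at D7, 8.29 at D10 and 11.97 at D28. Hapln1, the link protein of aggrecan, had means of 14.91, 12.78 and 15.56 at those time points. Not every member returned: Cilp2 went from a mean of 12.12 at D7 to 11.03 at D10, so the larger part of its fall came after D10, while Cilp had reached 8.80 by D10 and stood at 8.47 at D28.

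Growth plate regulators gave 2 rises and 4 falls of 20 tested, and the rises were 1 without any 1 of D7 replicates 1 to 3 or of D28 replicates 2 and 3. Runx3, a transcription factor of hypertrophy, fell by 1.38 (SE 0.16) and Hdac4, which restrains hypertrophy, by 1.40 (SE 0.12). The hedgehog receptor Ptch1 and the hedgehog target Gli1 fell by 1.22 (SE 0.15) and 1.34 (SE 0.24). Ihh, the hedgehog ligand of prehypertrophic cells, spread widely at D28, with 9.27, 7.68 and 6.71 against 7.94, 7.88 and 7.39 at D7, and it did not pass the test (log2 fold change 0.15, SE 0.66, adjusted p = 0.89). Foxa2, a transcription factor of hypertrophic cells, rose by 1.94 (SE 0.27). D28 replicate 1 was the highest D28 library for 16 of these 20 genes and for 13 of 23 cartilage matrix genes without a tie, against 35.4% of all tested genes.

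Hypertrophic markers separated from each other. Col10a1, the type X collagen gene, stood at 17.38, 17.16 and 17.27 at D7, had a mean of 18.10 at D10, and stood at 15.64, 13.31 and 13.89 at D28 (log2 fold change -2.99, SE 0.44, adjusted p = 6.1e-05). Its exons overlap those of Nt5dc1 on the opposite strand, and the strand setting of the counting is not stated. Mmp13, a collagenase of late hypertrophic cells and osteoblasts, had 15.66, 15.09 and 15.79 at D7 and 15.51, 15.52 and 15.34 at D28, so the libraries overlapped (log2 fold change -0.06, SE 0.28, adjusted p = 0.90). Panx3, a channel protein of hypertrophic cells and osteoblasts, rose from 7.68, 8.27 and 7.86 to 9.74, 10.07 and 9.08 (log2 fold change 1.69, SE 0.30, adjusted p = 0.00031). Clec3a fell by 1.33 (SE 0.23), and Ihh, Mef2c and Vegfa were not called.

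**Figure D2:**
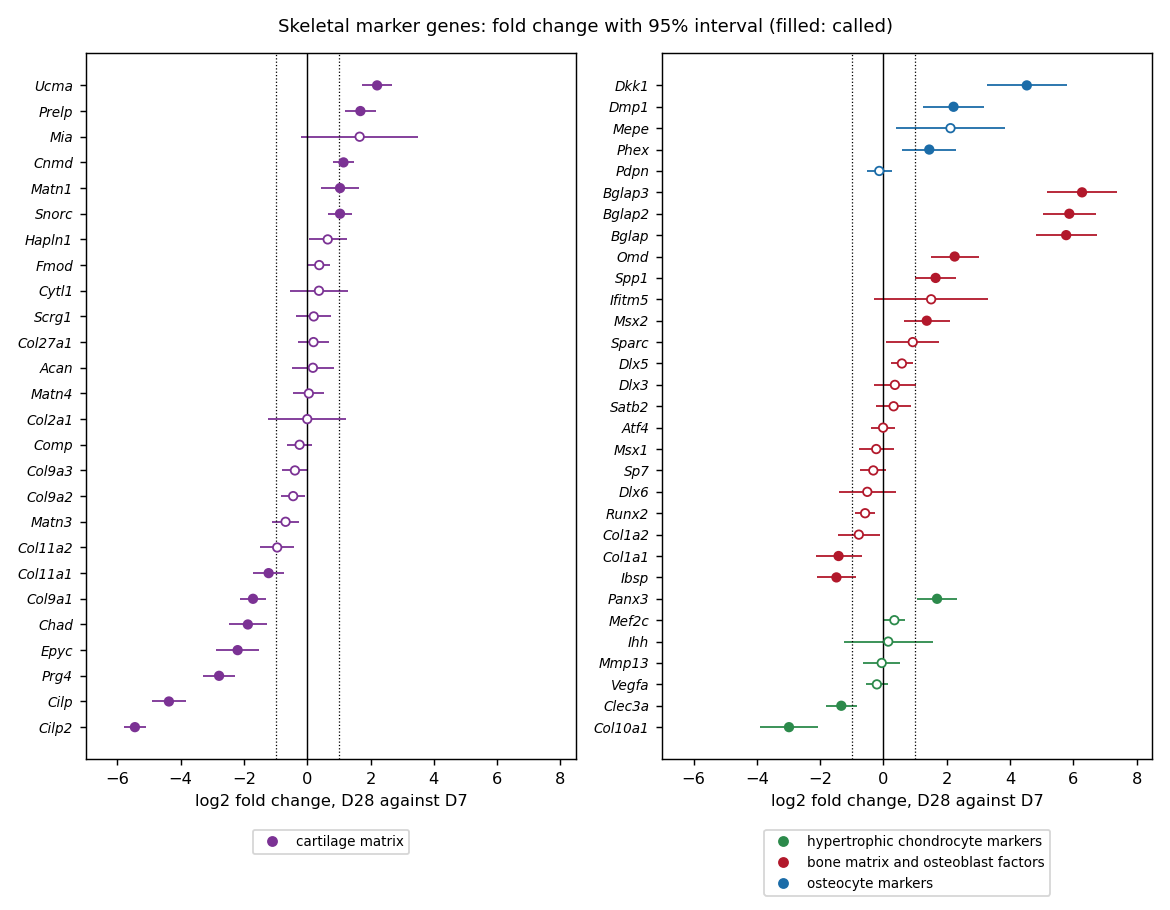
Log2 fold change of D28 against D7 (x axis) with its 95% interval for each tested cartilage matrix gene (left) and each hypertrophic, bone and osteocyte marker (right); filled points were called, open points were not, and dotted lines mark a log2 fold change of 1. Osteocalcin genes lie farthest to the right, and Cilp2, Cilp and Col10a1 lie far to the left; Col2a1 sits at 0 because it is at the ceiling, and the points of Dkk1 and Bglap3 are fitted values for genes with no more than 3 reads in any D7 library.

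Bone genes rose in part. Of 19 bone matrix and osteoblast factors, 6 were higher and 2 lower, 31.6% and 10.5% of the list, with a median log2 fold change of 0.36. The transcription factors that define osteoblasts were not called: Runx2 had 10.34, 9.77 and 10.37 at D7 and 9.62, 9.65 and 9.47 at D28 (log2 fold change -0.58, SE 0.15, adjusted p = 0.0056), and Sp7 stayed within an overlap of its libraries (log2 fold change -0.32, SE 0.20, adjusted p = 0.22). Bglap, an osteocalcin gene of mature osteoblasts, went from 2.03, 4.16 and 3.45 to 8.96, 8.98 and 9.02 (log2 fold change 5.77, SE 0.45, adjusted p = 1.1e-07). Its neighbours Bglap2 and Bglap3 are also among the 6 rises, at a log2 fold change of 5.87 (SE 0.39) and at least 20.7-fold. Bglap shares most of its sequence with Bglap2 and Bglap3, and reads can be split between these genes by the counting. The calls of these osteocalcin genes are therefore not independent. Omd, a mineral-binding proteoglycan of bone, rose from 12.26, 12.96 and 11.34 to 14.57, 14.49 and 14.25 (log2 fold change 2.25, SE 0.36, adjusted p = 0.00014). The falls were Col1a1, the main collagen gene of bone, from 18.92, 18.32 and 18.92 to 17.27, 17.38 and 17.27 (log2 fold change -1.42, SE 0.34, adjusted p = 0.0039), and Ibsp, encoding bone sialoprotein, by 1.49 (SE 0.29) after a D10 mean of 9.15. Of 7 osteocyte markers, Sost and Fgf23 failed the filter and 3 of the remaining 5 were higher, among them Dkk1. Dmp1, a matrix protein of early osteocytes, differed between the D28 libraries, with 6.15 in replicate 1 against 8.11 and 8.06, and Phex was called with an adjusted p of 0.01 and lost its call without D28 replicate 2 (adjusted p = 0.062). The highest D28 library was replicate 2 for 11 of 18 bone genes without a tie and for 4 of 5 osteocyte markers.

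The start of Bglap is shown because its RNA rose over the phase. Capitals mark ACCACA, to which RUNX factors bind, and TATAAA, the box at which many promoters place their start. Sequences here are the 250 bases before the RefSeq start on GRCm38.p6, read 5′ to 3′ on the strand of the gene, and motifs were searched on both strands. The Bglap stretch is chr3:88384467-88384716 on the minus strand.

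Bglap: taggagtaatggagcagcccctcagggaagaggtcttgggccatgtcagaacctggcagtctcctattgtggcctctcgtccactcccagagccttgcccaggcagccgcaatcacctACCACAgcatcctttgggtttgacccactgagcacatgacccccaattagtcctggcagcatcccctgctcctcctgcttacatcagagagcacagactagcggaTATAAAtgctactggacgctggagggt

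ACCACA began 132 bases and TATAAA 27 bases before the start. Of 12 bone gene promoters with a sequence, 3 (25.0%) held ACCACA and 3 (25.0%) TATAAA, against 11.1% and 7.43% of 12977 promoters of tested genes. A match says that these letters are present and no more.

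Genes of mineral handling went both ways, 3 higher and 2 lower of 14. Mgp, encoding matrix Gla protein, an inhibitor of mineral deposition, rose from 14.76, 15.06 and 15.06 to 18.02, 17.65 and 17.46 (log2 fold change 2.75, SE 0.31, adjusted p = 5e-06). Enpp3, an ectonucleotidase, rose by 3.31 (SE 0.24), and Car2, a carbonic anhydrase, by 3.18 (SE 0.72), which became 1.27 with low values raised to the 3-read level, since D7 replicates 1 and 3 were at 0. Slc20a1, a phosphate transporter, and Nt5e, which releases adenosine from its phosphate, fell by 1.55 (SE 0.15) and 2.33 (SE 0.19). The phosphatase Phospho1 was not called, with 5.99, 5.16 and 6.10 at D7 and 6.16, 5.23 and 5.36 at D28. Alpl, the alkaline phosphatase gene, had 13.67, 12.74 and 13.79 at D7, a mean of 10.14 at D10 and 12.98, 12.64 and 12.20 at D28. It was not called either (log2 fold change -0.79, SE 0.25, adjusted p = 0.022). Summed unlogged levels of the list were between 89120 and 93270 at D7 and between 228200 and 327400 at D28. Mgp carried this difference, since the other 13 members summed to between 57960 and 61470 at D7 and between 48050 and 61050 at D28.

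Falls outnumbered rises among genes of fibrous and elastic matrix. Of 21 elastic fibre genes, 10 were lower, 3 higher and 8 not called, with a median log2 fold change of -0.83. Eln, the elastin gene, was at a mean of 12.05 at D10, between 15.97 at D7 and 8.53 at D28. Fbn2, the fetal fibrillin, went from 12.82, 12.19 and 12.74 to 8.37, 7.89 and 8.63 (log2 fold change -4.29, SE 0.19, adjusted p = 3.1e-10), while Fbn1, the main fibrillin, was not called at 13.14, 13.09 and 13.29 against 13.19, 13.54 and 13.43. Adamtsl2, a fibrillin-binding protein, fell from 11.67, 12.02 and 12.16 to 4.88, 6.04 and 5.15 (log2 fold change -6.59, SE 0.29, adjusted p = 2.8e-10). The latent TGF-beta binding genes Ltbp1 and Ltbp4 had log2 fold changes of -1.79 (SE 0.16) and -2.83 (SE 0.20). Efemp1, Emilin2 and Fbln5, which encode fibulin and emilin proteins of elastic tissue, were the rises, by 3.33 (SE 0.25), 1.42 (SE 0.20) and 1.30 (SE 0.14).

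Collagens outside cartilage and bone followed, with 10 lower, 3 higher (5 without D7 replicate 3) and 15 not called of 28, and a median of -0.64. Col3a1, a collagen of loose tissue, fell from 17.82, 17.27 and 18.02 to 14.77, 15.79 and 15.31 (log2 fold change -2.41, SE 0.29, adjusted p = 9.2e-06). Col7a1 and Col8a2 fell by 3.83 (SE 0.17) and 3.99 (SE 0.26). Col6a5 and Col6a6, neighbouring type VI collagen genes, rose by 3.77 (SE 0.59) and 3.61 (SE 0.55). Among 25 collagen processing enzymes 8 were lower and 1 higher, and the lysyl oxidase genes Loxl2, Loxl3 and Loxl4 fell by 2.25 (SE 0.21), 2.69 (SE 0.19) and 2.23 (SE 0.19), while Lox itself was not called (log2 fold change 0.39, SE 0.18, adjusted p = 0.11). Of 28 glycosaminoglycan synthesis enzymes, 5 were lower and 0 higher, including Chsy1, which extends chondroitin chains (log2 fold change -2.03, SE 0.15), and Papss2, which makes the sulfate donor (log2 fold change -1.75, SE 0.17). Small leucine-rich proteoglycans gave 3 rises and 2 falls of 17, with Ecm2 up by 3.31 (SE 0.17).

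Matrix proteases and their inhibitors gave 8 rises and 8 falls of 31. Timp4, an inhibitor of matrix metalloproteinases, rose from 8.68, 9.74 and 8.88 to 13.79, 13.58 and 13.69 (log2 fold change 4.59, SE 0.30, adjusted p = 2.1e-08). Adamts15, a proteoglycan-cleaving enzyme, rose by 2.50 (SE 0.25). Adamts16 and Adamts18, with no more than 3 reads in any D28 library, were at least 6.10-fold and at least 10.7-fold lower. Adamts6 fell by 4.25 (SE 0.35). The gelatinase Mmp9 gave 1.50, 7.07 and 4.87 in the D28 libraries, a wider spread than at D7 (3.93, 5.01 and 4.49).

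**Figure D3:**
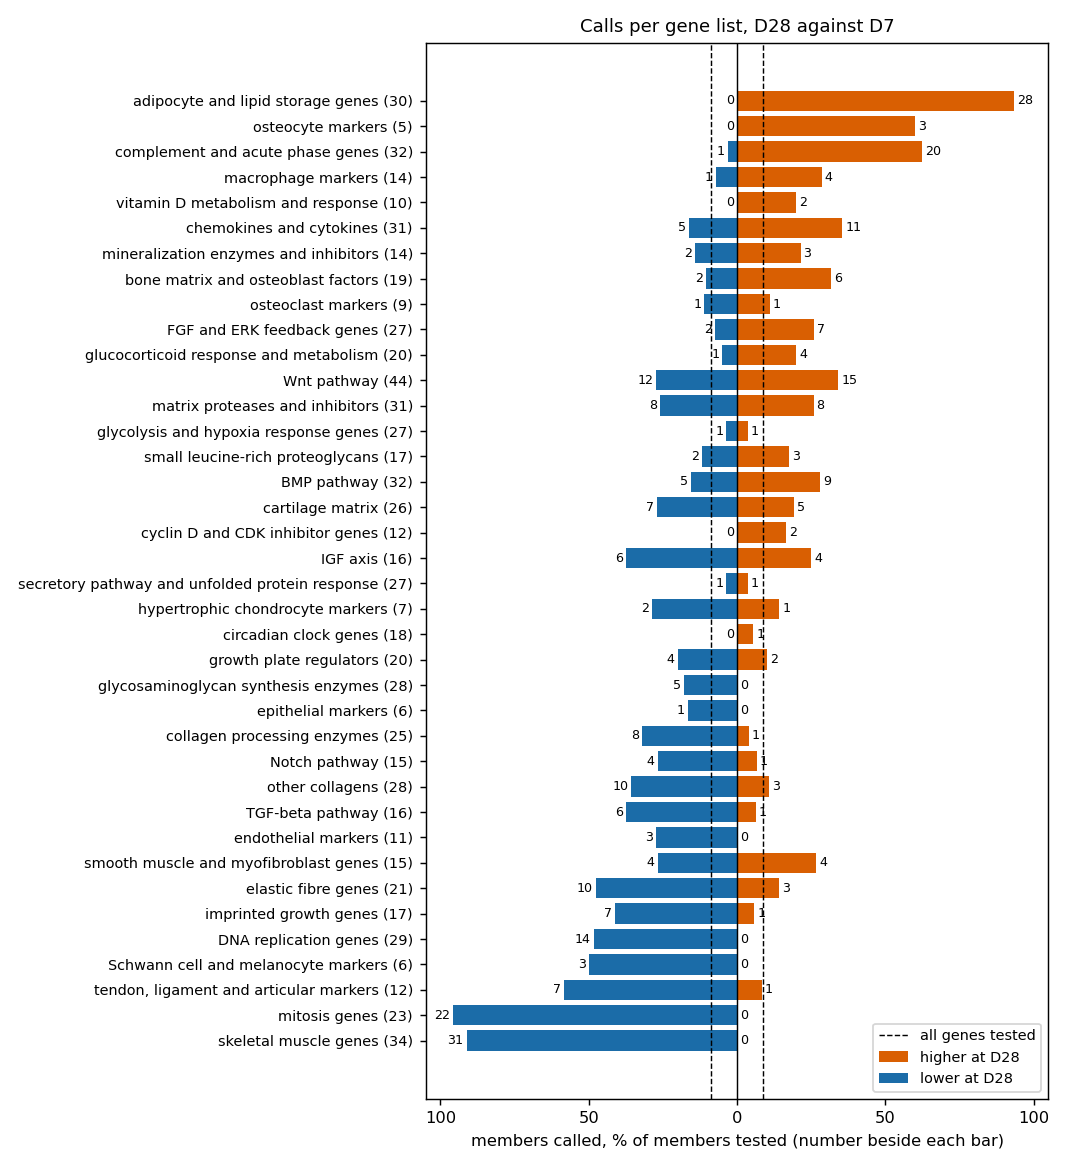
Share of tested members called higher (right, orange) or lower (left, blue) at D28 in each gene list, in percent, with the number of members tested in brackets and the number called beside each bar; dashed lines mark the shares over all tested genes, 8.63% and 8.66%. Adipocyte genes lead the rises with 28 of 30 members, and skeletal muscle and mitosis genes the falls with 31 of 34 and 22 of 23.

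Fat cell genes rose almost as a whole. Of 30 adipocyte and lipid storage genes tested, 28 (93.3%) were higher and 0 lower, with a median log2 fold change of 2.75, and Ucp1 failed the filter. Pparg, the nuclear receptor that sets adipocyte fate, went from 6.86, 7.78 and 7.07 to 10.08, 9.91 and 10.36 (log2 fold change 2.88, SE 0.25, adjusted p = 3.5e-07). Adipoq, the hormone adiponectin, went from 6.65, 7.67 and 6.86 to 12.30, 12.45 and 12.74 (log2 fold change 5.44, SE 0.29, adjusted p = 2.3e-09). Every D28 library lay far above every D7 library for both genes. Fabp4, a fatty acid carrier, rose from 11.99, 11.98 and 11.73 to 14.37, 14.44 and 14.71 (log2 fold change 2.61, SE 0.18). Cidec and Cidea, lipid droplet proteins, rose by 5.26 (SE 0.40) and 5.08 (SE 0.29), and Adrb3, the beta-3 adrenergic receptor of fat, by 4.92 (SE 0.76). Lpl and Cd36, which bring in fatty acids, rose by 3.46 (SE 0.15) and 3.76 (SE 0.23), and Lep, the hormone leptin, by 3.81 (SE 0.53). The members not called were genes of fatty acid synthesis, Fasn (log2 fold change 0.58, SE 0.12) and Acaca (log2 fold change -0.01, SE 0.12).

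Most of these genes stood lower at D10 than at D7 or were not called there: 16 members were lower and 3 were higher at D10. Other lists moved as well: 21 of 26 cartilage matrix and 23 of 32 complement genes were lower at D10. In contrast, 16 of 27 FGF and ERK feedback genes were higher at D10. The share of all tested genes called between D10 and D7 is not given here, so such counts, also below, have no background. Mean levels of Adipoq, Cfd and Fabp4 at D10 were 4.02, 2.36 and 9.96, each below the mean of 7.06, 4.71 and 11.90 at D7. Cidea was one of the 3 that were higher, with means of 3.93 at D7, 6.49 at D10 and 9.02 at D28, and Plin2, a lipid droplet coat protein, another, with 10.54, 14.17 and 12.18. Against D10, 28 of the 30 members were higher at D28, and Plin2 was lower. Replicate 3 was the highest D28 library for 25 of the 30 members, where it was highest for 31.2% of all tested genes, and also for 22 of 27 glycolysis and hypoxia response genes, of which 1 was higher and 1 lower against D7. Without D28 replicate 2, 27 members were called higher. Summed levels of the fat list were 48740 to 61300 at D7 and 220300 to 270100 at D28. In bulk pellets, more cells of a type and more RNA per cell cannot be told apart, and the same holds for falls.

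**Figure D4:**
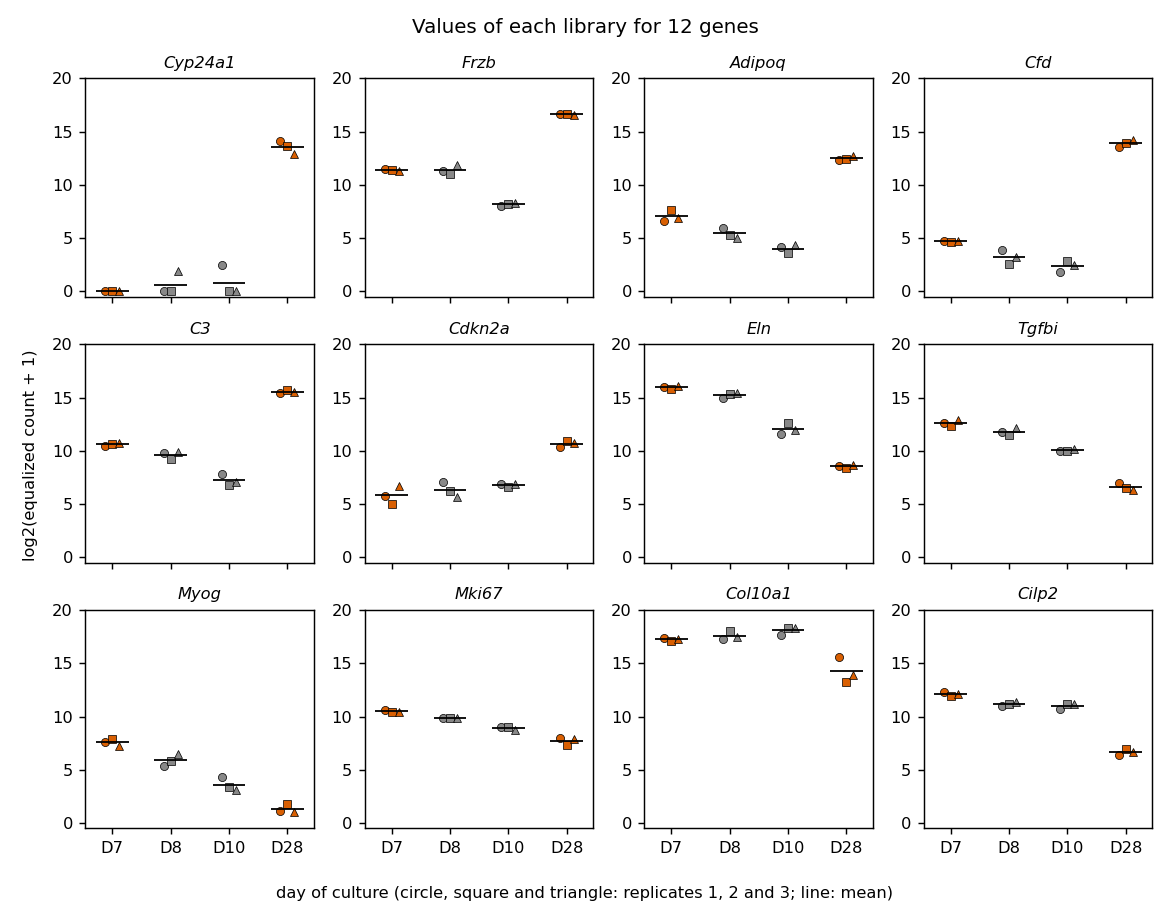
Log2(equalized count + 1) (y axis) of 12 genes in each library at D7, D8, D10 and D28 (x axis); circles, squares and triangles are replicates 1, 2 and 3, lines are means of n = 3, and D7 and D28 are orange. Adipoq, Cfd, C3 and Frzb dip at D10 before their D28 level, while Eln, Tgfbi and Myog fall step by step.

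Complement and acute phase genes formed the other large group of rises, 20 higher and 1 lower of 32, with a median of 1.63. With low values raised to the 3-read level, 18 were higher and the median was 1.40. C3, the central complement component, went from 10.49, 10.61 and 10.72 to 15.38, 15.73 and 15.54 (log2 fold change 4.94, SE 0.21, adjusted p = 2.8e-10), and its D10 mean was 7.22. Cfd, the protease factor D that fat cells secrete, is a member of both lists and stood at 4.75, 4.66 and 4.72 at D7 and at 13.58, 13.94 and 14.20 at D28. Hp, encoding the haemoglobin binder haptoglobin, rose from 13.68, 12.93 and 13.71 to 16.52 in each D28 library (log2 fold change 3.08, SE 0.22), and C4b by 2.84 (SE 0.26). Pla2g2a, a secreted phospholipase, had 2.03, 2.79 and 1.37 at D7, of which replicates 1 and 3 held no more than 3 reads, and 12.03, 11.49 and 11.25 at D28. Orm2 and Orm3, with no more than 3 reads in any D7 library, were at least 4.57-fold and 13.4-fold higher, and reads can be split between these near-identical genes.

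The C1q genes in this list are products of macrophages, and macrophage markers stood apart in D28 replicate 2. C1qa read 6.38, 9.23 and 5.87 in the D28 libraries against 4.75, 5.56 and 5.34 at D7, and its adjusted p of 0.042 became 0.25 without D28 replicate 2, and 0.13, 0.06 and 0.075 without D7 replicates 1, 2 and 3. The other C1q genes kept their calls without any 1 library: C1qb rose from 4.43, 5.31 and 5.52 to 6.93, 9.10 and 6.20 (log2 fold change 2.32, SE 0.62, adjusted p = 0.0079), and C1qc rose by 2.47 (SE 0.58). Csf1r, the receptor that macrophages depend on, read 4.72, 7.92 and 5.13 at D28 and was not called (adjusted p = 0.17), though it was without D28 replicate 1 (adjusted p = 0.046). Replicate 2 was the highest D28 library for 14 of 14 macrophage markers, and their summed level ran from 1533 to 7167 at D28 and from 1473 to 1741 at D7. Without Lyz2, a lysozyme gene and the member with the highest level, the sum ran from 898.2 to 3612 at D28 and from 601.9 to 742 at D7. Of the 14 markers, 4 were higher and 1 lower, and the rises became 2 without D28 replicate 2 and 8 without D28 replicate 1. Without D28 replicate 2 the complement list still had 19 rises and 1 fall. The part of macrophage number in these values was not tested.

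Chemokines and cytokines gave 11 rises and 5 falls of 31, with a median of 0.63. With low values raised to the 3-read level the rises were 7 and the median was 0.10, and without D28 replicate 2 the median was 0.29. Cxcl12, a chemokine that retains marrow cells, rose from 11.75, 11.22 and 11.85 to 13.32, 13.98 and 13.82 (log2 fold change 2.10, SE 0.22, adjusted p = 1.8e-06). Il34, a ligand of the Csf1r receptor, rose by 3.43 (SE 0.18) and Ccl2 by 2.61 (SE 0.43). Il33, an alarm cytokine, fell by 4.74 (SE 0.54), or by 3.18 with low values raised. Il6 had a mean of 5.78 at D10 and was not called against D7 (adjusted p = 0.067), unless D28 replicate 2 was left out (adjusted p = 0.035). Of 20 genes of glucocorticoid response and metabolism 4 were higher and 1 lower, with Hsd11b1, which regenerates active glucocorticoid, up by 2.15 (SE 0.20) and Fkbp5, a standard target, not called (adjusted p = 0.057).

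Vitamin D genes gave 2 rises and 0 falls of 10, and 3 rises without D7 replicate 1, D7 replicate 3 or D28 replicate 3. Cyp24a1, which breaks down active vitamin D, lies at chr2:170482708-170497145 on the minus strand of GRCm38 and overlaps exons of Pfdn4 on the other strand. It was at 0 in each D7 library and at 14.09, 13.61 and 12.89 at D28, and S100g, a vitamin D-induced calcium-binding protein, rose from 2.91, 2.79 and 2.03 to 6.34, 7.32 and 6.79 (log2 fold change 4.24, SE 0.57, adjusted p = 2.9e-05). The receptor gene Vdr had 9.71, 9.19 and 9.61 at D7 and 10.27, 10.30 and 9.96 at D28, a separation below the fold threshold (log2 fold change 0.67, SE 0.17, adjusted p = 0.0048). Cyp27b1, which makes the active hormone, had 2.66, 3.73 and 2.03 at D7 and 1.81, 0.00 and 3.37 at D28, close to the read floor. Some of the largest rises were of genes at 0 in each D7 library. The pancreatic hormone gene Ppy was at least 190-fold higher at D28, the apolipoprotein gene Apoc3 at least 60.5-fold, the methyltransferase gene Bhmt at least 54.7-fold and the cholecystokinin receptor gene Cckar at least 20.7-fold. Their D28 values were 10.69, 10.40 and 10.25 for Ppy, and 8.65, 8.90 and 8.82 for Apoc3. Each was also at 0 in the D10 libraries.

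Skeletal muscle genes fell, 6 of them to no more than 3 reads in every D28 library. Of 34 tested, 31 (91.2%) were lower and 0 higher, with a median of -4.08 (-3.37 with low values raised to the 3-read level), and Myh4 and Tnnc2 failed the filter. Myog, a transcription factor of muscle differentiation, stood at 7.58, 7.93 and 7.29 at D7 and at 1.12, 1.84 and 1.06 at D28, where 2 libraries held no more than 3 reads. Myod1, which commits cells to muscle, was at 5.59, 5.54 and 5.56 at D7 and at least 6.45-fold lower at D28. Myh3, the embryonic myosin heavy chain, was at 8.98, 9.53 and 8.57 at D7 and at least 71.2-fold lower. Acta1, the skeletal actin, went from 10.17, 10.62 and 10.39 to 2.03, 5.12 and 5.33 (log2 fold change -6.23, SE 0.59, adjusted p = 7.5e-07). The groups did not overlap for any of these genes. Tnni2, the fast troponin I, was an exception at 9.25, 9.88 and 9.07 against 10.68, 9.13 and 9.67 (log2 fold change 0.43, SE 0.33). At D10, 30 members were lower than at D7, and at D28 15 were lower and 2 higher than at D10, Tnni2 among the latter. Replicate 2 was the highest D7 library for 28 of the 34 genes, where it was highest for 35.2% of all tested genes. The summed level ran from 7840 to 10560 at D7 and from 1212 to 2077 at D28, and without Tnni2 from 7303 to 9620 and from 440.4 to 694.3.

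The promoters of 3 muscle genes that fell together are shown. Capitals mark CANNTG, the E-box that MYOD family proteins bind, and TATAAA.

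Myog: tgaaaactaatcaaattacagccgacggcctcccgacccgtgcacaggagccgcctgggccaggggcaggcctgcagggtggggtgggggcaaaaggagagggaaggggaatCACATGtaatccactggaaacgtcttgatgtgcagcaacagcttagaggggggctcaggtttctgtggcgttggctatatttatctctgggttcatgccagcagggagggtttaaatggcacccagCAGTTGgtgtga
Myh3: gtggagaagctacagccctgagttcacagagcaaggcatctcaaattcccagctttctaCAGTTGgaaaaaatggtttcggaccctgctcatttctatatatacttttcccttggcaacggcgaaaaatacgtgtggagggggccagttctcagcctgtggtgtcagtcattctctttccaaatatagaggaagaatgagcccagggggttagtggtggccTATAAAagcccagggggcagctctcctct
Acta1: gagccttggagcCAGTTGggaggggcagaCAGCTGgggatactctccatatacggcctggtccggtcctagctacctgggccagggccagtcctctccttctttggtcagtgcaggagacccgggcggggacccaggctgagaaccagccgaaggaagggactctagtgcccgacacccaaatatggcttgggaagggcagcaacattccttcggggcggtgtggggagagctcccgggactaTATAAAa

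These are chr1:134289754-134290003 (plus strand), chr11:67078050-67078299 (plus strand) and chr8:123894776-123895025 (minus strand). E-boxes began 138 and 12 bases before the start of Myog, 191 before that of Myh3, and 238 and 221 before that of Acta1, whose nearer one reads CAGCTG. The box TATAAA lay 29 bases before the start of Myh3 and 7 before that of Acta1, and these letters are not in the Myog stretch. Of 27 muscle promoters with a sequence, 20 (74.1%) held CANNTG, 10 (37.0%) CAGCTG, which is one of its forms, and 6 (22.2%) TATAAA. Among 12977 promoters of tested genes the shares were 58.6%, 12.3% and 7.43%.

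Genes of cell division fell. Of 23 mitosis genes, 22 (95.7%) were lower and 0 higher, with a median of -2.48. Mki67, a protein of cycling cells, fell from 10.64, 10.41 and 10.44 to 7.99, 7.30 and 7.87 (log2 fold change -2.78, SE 0.15, adjusted p = 3.5e-09). Plk1, a mitotic kinase, fell from 8.21, 7.96 and 8.41 to 6.44, 5.08 and 5.42 (log2 fold change -2.55, SE 0.28). Cdc20, which activates the anaphase complex, fell by 1.99 (SE 0.17), and Ccnb2, a mitotic cyclin, by 2.38 (SE 0.32). The member not called was Cdk1, at -0.99 (SE 0.15), just short of the fold threshold, which it passed without D7 replicate 3, without D7 replicate 1 (-1.02) or without D28 replicate 1 (-1.07). At D10, 5 members were lower than at D7, and 22 were lower at D28 than at D10. Replicate 1 was the highest D28 library for 19 of the 23.

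Of 29 DNA replication genes 14 were lower and 0 higher, with a median of -0.95. Tk1 and Cdc6, used for thymidine supply and origin licensing, fell by 2.29 (SE 0.17) and 2.16 (SE 0.23), while Pcna was not called (log2 fold change -0.04, SE 0.14, adjusted p = 0.85). Rrm2, a subunit of ribonucleotide reductase, was not called either (log2 fold change 0.36, SE 0.13). Among 12 cyclin D and CDK inhibitor genes, 2 were higher and 0 lower. Cdkn2a, which encodes the p16 and p19ARF growth inhibitors, rose from 5.74, 5.01 and 6.66 to 10.34, 10.91 and 10.69 (log2 fold change 4.84, SE 0.37, adjusted p = 7.9e-08). Its neighbour Cdkn2b rose from 9.24, 8.96 and 9.74 to 11.25, 11.65 and 11.50 (log2 fold change 2.15, SE 0.19, adjusted p = 3.8e-07). Cdkn1a, the p21 gene, was not called (log2 fold change -0.22, SE 0.11), and neither were Ccnd1, Ccnd2 and Ccnd3.

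Promoters of 3 mitosis genes are printed because the list fell together. Capitals mark CCAAT, the box that NF-Y binds, and TTTGAA, a form of the cell cycle homology element.

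Cdc20: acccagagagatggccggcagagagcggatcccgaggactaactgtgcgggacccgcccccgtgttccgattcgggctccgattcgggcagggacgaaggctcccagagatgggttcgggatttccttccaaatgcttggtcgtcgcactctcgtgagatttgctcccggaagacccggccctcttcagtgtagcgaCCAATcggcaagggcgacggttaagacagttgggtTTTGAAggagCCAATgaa
Plk1: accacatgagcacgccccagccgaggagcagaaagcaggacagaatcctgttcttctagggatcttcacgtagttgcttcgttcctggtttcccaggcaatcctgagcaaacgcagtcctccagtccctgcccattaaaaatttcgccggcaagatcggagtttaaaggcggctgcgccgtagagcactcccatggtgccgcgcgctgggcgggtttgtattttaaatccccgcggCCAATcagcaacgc
Ccnb2: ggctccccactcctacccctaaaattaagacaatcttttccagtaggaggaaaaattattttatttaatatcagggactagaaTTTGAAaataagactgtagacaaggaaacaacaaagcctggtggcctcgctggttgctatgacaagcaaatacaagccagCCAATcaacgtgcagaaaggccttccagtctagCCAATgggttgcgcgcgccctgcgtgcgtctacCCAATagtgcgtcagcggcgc

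They are chr4:118437344-118437593 (minus strand), chr7:122159185-122159434 (plus strand) and chr9:70421555-70421804 (minus strand). CCAAT began 53 and 8 bases before the start of Cdc20, 14 before that of Plk1, and 87, 54 and 21 before that of Ccnb2. TTTGAA began 18 bases before the start of Cdc20 and 167 before that of Ccnb2. Of 19 mitosis promoters with a sequence, 16 (84.2%) held CCAAT, 7 (36.8%) TTTGAA and 0 TATAAA. Over 12977 promoters of tested genes these shares were 35.5%, 10.9% and 7.43%.

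Wnt genes split by role. The pathway list gave 15 rises and 12 falls of 44, 34.1% and 27.3% of its members. Wnt proteins are secreted ligands that act through Frizzled and LRP receptors, R-spondins raise the response, and secreted antagonists hold it back. Of 10 secreted antagonists 7 were higher and 0 lower, with a median of 1.99. Frzb, which binds Wnt ligands, went from 11.54, 11.44 and 11.28 to 16.64, 16.69 and 16.58 (log2 fold change 5.22, SE 0.16, adjusted p = 7.6e-12). Its D10 mean was 8.18, so it dropped before it rose. Dkk1, an LRP blocker, was at 0 in each D7 library and at 5.68, 4.53 and 3.37 at D28, at least 3.15-fold higher. Dkk2, Notum, which inactivates Wnt ligands, and Wif1 rose by 3.25 (SE 0.33), 2.71 (SE 0.31) and 2.26 (SE 0.19). Sfrp1 was not called (log2 fold change -0.43, SE 0.27, adjusted p = 0.23).

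Of 12 Wnt ligands 1 was higher and 5 lower, with a median of -1.07. Wnt7b, a ligand linked to osteoblast formation, stood at 5.46, 5.48 and 6.28 at D7, had a mean of 8.79 at D10 and no more than 3 reads in any D28 library, at least 7.28-fold lower. Wnt5b, Wnt10b and Wnt11 fell by 2.59 (SE 0.27), 2.66 (SE 0.35) and 2.49 (SE 0.21), while Wnt2b rose by 2.45 (SE 0.37). Of 8 receptors 4 were higher and 0 lower, among them Fzd9 at 2.08 (SE 0.19) and Lrp5 at 1.09 (SE 0.11). Rspo2, an R-spondin, rose by 3.68 (SE 0.49), and Lgr6, an R-spondin receptor, fell from 11.77, 11.80 and 11.61 to 8.41, 7.14 and 7.02 (log2 fold change -4.21, SE 0.31, adjusted p = 5.3e-08). Of 8 targets and feedback genes, 1 was higher and 4 lower: Apcdd1 rose by 1.71 (SE 0.27), and Ccn4, Nkd2, Nkd1 and Ccn5 fell by 2.55 (SE 0.19), 2.18 (SE 0.25), 1.68 (SE 0.17) and 1.19 (SE 0.18). Axin2, the usual readout of the pathway, gave 5.95, 5.72 and 5.78 at D7 and 6.23, 5.57 and 6.14 at D28, and the libraries overlapped (log2 fold change 0.17, SE 0.26, adjusted p = 0.66).

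**Figure D5:**
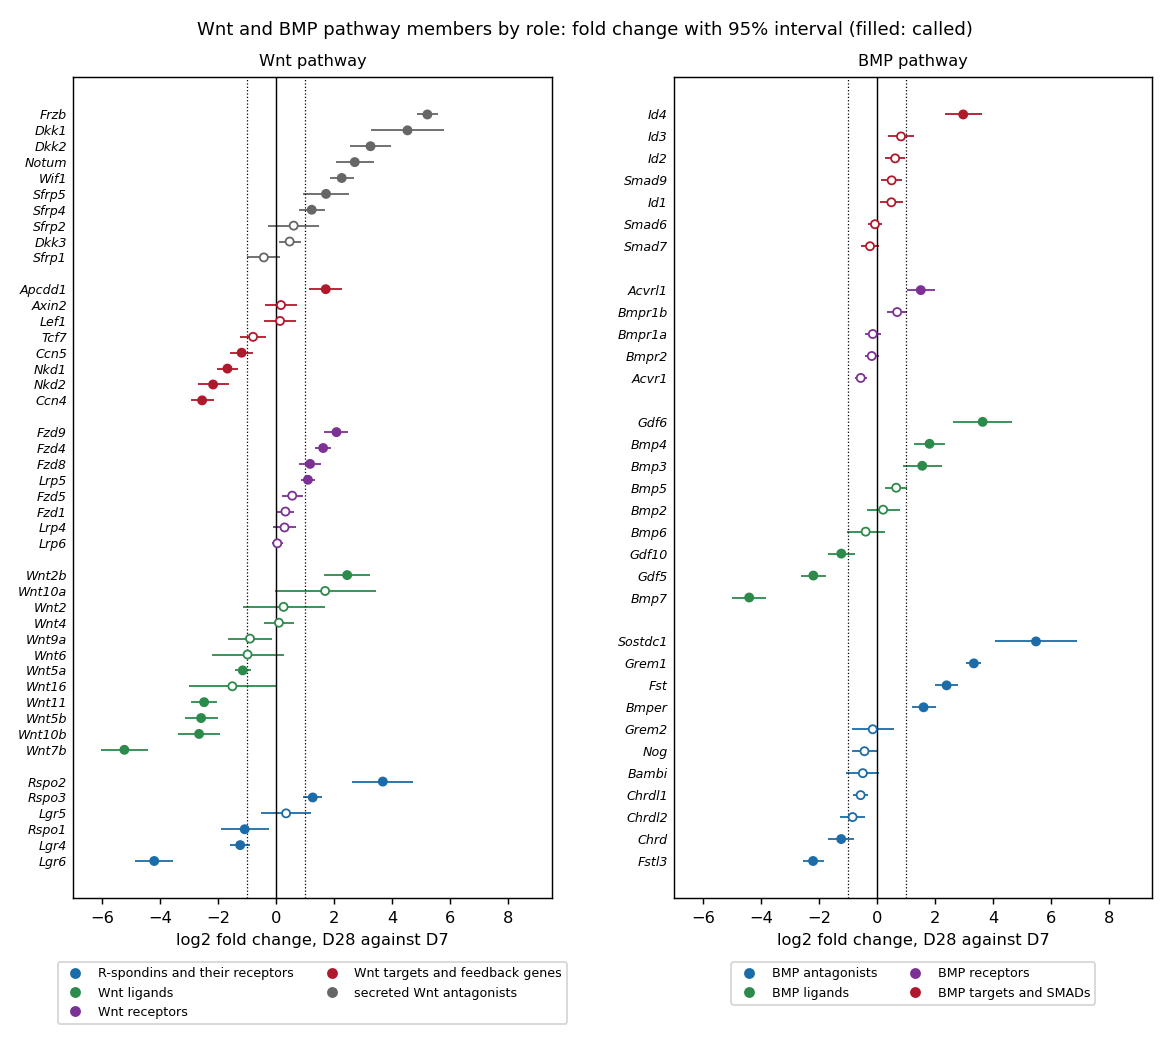
Log2 fold change of D28 against D7 (x axis) with its 95% interval for each tested member of the Wnt (left) and BMP (right) pathways, grouped by role; filled points were called and dotted lines mark a log2 fold change of 1. Of the secreted Wnt antagonists 7 of 10 were called higher, and of the Wnt ligands 5 of 12 were called lower; points of Dkk1, Wnt7b, Wnt2 and Sostdc1 are fitted values with a group at the read floor.

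The BMP list gave 9 rises and 5 falls of 32. BMP ligands signal through SMAD proteins to Id genes, and secreted antagonists trap them. Of 9 ligands 3 were higher and 3 lower: Bmp4 rose from 7.38, 6.79 and 7.34 to 9.02, 8.83 and 9.09 (log2 fold change 1.81, SE 0.26, adjusted p = 4.9e-05), and Gdf6 rose by 3.64 (SE 0.48). Bmp7 fell from 9.63, 9.72 and 9.83 to 6.13, 5.06 and 4.76 (log2 fold change -4.41, SE 0.28, adjusted p = 1.3e-08). Bmp2 gave 6.65, 6.69 and 7.15 at D7 and 7.22, 6.62 and 7.27 at D28 and was not called, although its D10 mean was 10.12. Among 11 antagonists 4 were higher and 2 lower. Grem1, the antagonist gremlin, rose from 10.87, 10.86 and 10.70 to 13.91, 14.40 and 14.13 (log2 fold change 3.34, SE 0.12, adjusted p = 5.7e-11). Fst and Bmper rose by 2.40 (SE 0.19) and 1.60 (SE 0.19), Sostdc1 was at least 12.3-fold higher, and Chrd and Fstl3 fell by 1.24 (SE 0.21) and 2.21 (SE 0.17). The target Id1 was not called (log2 fold change 0.49, SE 0.19), and Id4 rose by 2.97 (SE 0.30).

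Of 16 TGF-beta genes 6 were lower and 1 was higher, with a median of -0.67. Tgfbi, a matrix protein induced by TGF-beta, went from 12.61, 12.34 and 12.87 to 6.95, 6.52 and 6.29 (log2 fold change -6.02, SE 0.18, adjusted p = 5.2e-12). Pmepa1 and Skil, feedback inhibitors, fell by 3.00 (SE 0.18) and 1.65 (SE 0.11), and Inhba, an activin subunit, by 1.83 (SE 0.14). The ligand gene Tgfb3 was the rise, by 1.29 (SE 0.19). Smooth muscle and myofibroblast genes gave 4 rises and 4 falls of 15, with Myh11, a smooth muscle myosin, up by 4.66 (SE 0.48) and Postn, encoding periostin, down from 15.91, 16.04 and 15.72 to 14.12, 14.28 and 14.36 (log2 fold change -1.63, SE 0.18).

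In the IGF axis 4 of 16 genes were higher and 6 lower. Igf2, a fetal growth factor, fell from 13.01, 12.62 and 12.78 to 10.32, 10.24 and 10.39 (log2 fold change -2.49, SE 0.16, adjusted p = 1.3e-08). Igfbp3, a carrier of IGF proteins, rose from 8.67, 8.24 and 8.85 to 12.53, 12.92 and 12.84 (log2 fold change 4.18, SE 0.27, adjusted p = 2e-08), and Igfbp5 by 2.66 (SE 0.19). Igfals, which completes the circulating carrier complex, rose by 3.62 (SE 0.26), and Ghr, the growth hormone receptor, by 1.99 (SE 0.12). Igf1 fell by 1.20 (SE 0.26), a call that was lost without D28 replicate 1 (log2 fold change -0.87). Imprinted growth genes gave 7 falls and 1 rise of 17, Igf2 among them, with a median of -0.90, while H19 was not called at 18.02, 18.02 and 17.65 against 17.38, 17.82 and 17.65.

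FGF and ERK feedback genes gave 7 rises and 2 falls of 27. Against D10, 3 were higher and 11 lower at D28, where 13.8% and 13.7% of all tested genes were called. Dusp6, a phosphatase that limits ERK, rose from 6.93, 7.08 and 7.00 to 9.20, 8.59 and 9.28 (log2 fold change 2.02, SE 0.18, adjusted p = 3.6e-07). Etv5, an ERK-induced transcription factor, rose by 2.79 (SE 0.19), Spry2, a feedback inhibitor, by 1.68 (SE 0.19), and the ligand gene Fgf10 by 2.71 (SE 0.44). Fgf21, a stress hormone, fell by 3.05 (SE 0.18). Notch genes gave 4 falls (2 without D28 replicate 3) and 1 rise of 15, with the receptor gene Notch4 down by 2.00 (SE 0.28) and Lfng, which modifies the receptors, up by 1.93 (SE 0.28).

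Lists of cell functions that stayed near the background were the secretory pathway and unfolded protein response (1 higher and 1 lower of 27), glycolysis and hypoxia response (1 and 1 of 27) and circadian clock genes (1 and 0 of 18). Hspa5, the main chaperone of the endoplasmic reticulum, had a D10 mean of 17.01 and stood at 14.92, 15.23 and 15.43 at D28 against 14.51, 14.83 and 14.64 at D7 (log2 fold change 0.53, SE 0.21, adjusted p = 0.056). Car12, a membrane carbonic anhydrase in the hypoxia list, fell from 12.63, 12.37 and 12.35 to 7.37, 7.79 and 6.86 (log2 fold change -5.11, SE 0.21, adjusted p = 1.5e-10).

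Short lists of markers for further cell types were checked. Of 11 endothelial markers 3 were lower and 0 higher, which became 1 lower without D7 replicate 2, and 1 lower and 1 higher without D28 replicate 2. Their summed level ran from 1311 to 1492 at D7 and from 451.9 to 573.7 at D28. Most of it was Erg, which chondrocytes also express, and the sum of the other 10 ran from 128.9 to 135.5 and from 65.75 to 114. Erg stood at 10.41, 10.36 and 10.20 and at 8.85, 8.60 and 8.55. Pecam1, an endothelial adhesion protein, stood at 2.37, 3.73 and 3.26 at D7 and 3.70, 2.48 and 1.81 at D28. Of 9 osteoclast markers 1 was higher and 1 lower, with a median of 0.33 (0.71 without D28 replicate 1 and 0.04 without D28 replicate 2, the highest D28 library for 7 of the 9). Acp5, tartrate-resistant acid phosphatase, rose by 1.13 (SE 0.22), or 0.89 without D7 replicate 2 and then under the threshold. Dcstamp and Ocstamp, needed for osteoclast fusion, held no more than 3 reads in any D7 library. Dcstamp also held no more than 3 reads in any D28 library and was not called. Schwann cell and melanocyte markers gave 3 falls of 6, with Sox10 at 5.09, 5.93 and 5.89 at D7 and at 2.03, 2.03 and 1.81 at D28. Epithelial markers gave 1 fall of 6, and of 6 erythroid markers 5 failed the filter and Alas2 was not called.

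The gene with the largest fall, R3hdml, encodes a secreted protein of the CAP family and stood at 12.08, 11.61 and 11.72 at D7, at a mean of 8.58 at D10 and at 2.68, 0.00 and 2.03 at D28. The gene 1520401A03Rik stood at 12.99, 13.13 and 13.03 at D7, at a mean of 11.86 at D10 and at 2.39, 3.45 and 3.82 at D28. Igfn1 and Trem1, the second a receptor of myeloid cells, were at 0 in each D28 library and at least 15.4-fold and 14.6-fold lower. Ctla4, which encodes an inhibitory receptor on T cells, stood at 7.21, 7.79 and 6.40 at D7 and at 0.58, 0.00 and 2.03 at D28. Cntnap3 stood at 6.51, 7.21 and 6.95 at D7 and at 2.39, 0.00 and 0.00 at D28. Among the largest rises, Cdh22, a cadherin, stood at 9.30, 10.21 and 9.65 at D28, Otos, an inner ear protein, at 8.30, 9.36 and 9.43, Cacna1e, a calcium channel subunit, at 9.34, 9.63 and 8.95, and Hgd, an enzyme of tyrosine breakdown, at 9.15, 9.41 and 8.97. The D7 libraries of these genes lay between 0.00 and 2.91. Serpina1d, at least 20.1-fold higher, has near-identical paralogs between which reads can be split.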

How the data were processed

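Pellet RNA libraries of D7 and D28, 3 replicates each, were compared, and those of D8 and D10 entered the same fit. The authors deposited log2 values, 1 per gene symbol and library, after read trimming with Trimmomatic 0.36, HISAT2, Cufflinks and HTSeq, equalization between samples and a log2 transformation with a pseudocount of 1. The labels give the build GRCm38, whereas the supplementary methods name a human build. Sorted values are nearly the same in every library, so total reads per library are not kept. Every column of the file was used.

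Means of the 4 time points were fitted to 12 libraries with limma 3.58.1 in R 4.3.3 (trended variance prior, 8 residual and 7.23 prior degrees of freedom), and two-sided adjusted p-values of limma were computed with the Benjamini-Hochberg method over the 17674 genes tested. Where every library of a group held at most 3 reads, values under the highest 3-read level of any library (2.87) were raised to it and the fold change was given as a bound. Read levels carry counting error only. Members, gene lists and tests were chosen with earlier results of these data known. The 39 lists are described by counts and medians, with no test. Genes could be named by rule: the 12 largest rises and 12 largest falls with non-overlapping libraries and a higher mean of at least 6, the first 3 and up to 5 called members of each list, and lists of 12 or fewer in full. The text names part of these, chosen with their values known. A further 42 genes were chosen after their values were seen: Acaca, Apcdd1, Bmper, C4b, Ccn4, Ccn5, Ccnb2, Cd36, Cdc20, Chad, Chrd, Cnmd, Col11a1, Col1a1, Col9a1, Dkk2, Emilin2, Fasn, Fbln5, Fst, Fstl3, Fzd9, Hp, Ibsp, Lep, Lpl, Lrp5, Lyz2, Matn1, Matn3, Nkd1, Nkd2, Notum, Plin2, Plk1, Snorc, Tnni2, Wif1, Wnt10b, Wnt11, Wnt2b and Wnt5b. The fit was also run on simulated data, with an outcome that is not given here. Alternatives covered the filter, scaling, pseudocount, read floor, variance prior, fold threshold, the study's own rule, a replicate block, the 6 libraries alone and each library left out. Promoter sequences are RefSeq's, and gene positions and exon overlaps are from GENCODE M21. Python 3.11.15 handled the tables (pandas 2.3.3, numpy 2.4.6) and the plots (matplotlib 3.10.9).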

Additional observations from a re-analysis of the deposited data

How the results depend on the processing

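No named gene that was called, as reported or in the alternative, changed its sign under the alternatives run. Uncalled genes near 0 did, such as Mmp13, Acaca and Pcna, which turned positive with median of ratios scaling. When the fold change threshold on the log2 scale was raised to 2, 712 genes were higher and 644 lower at D28, and without such a threshold 3103 were higher and 3489 lower. The other settings on all D7 and D28 libraries gave between 1167 and 1645 higher and between 1225 and 1517 lower genes. The fewest rises came with a mean log2 value of at least 3 as filter, and the most with median of ratios scaling, where 53.4% of the calls were rises. Leaving out 1 library at a time gave 1384 to 1464 higher and 1414 to 1491 lower genes. The replicate numbers did not pair the samples: deviations of same-numbered D7 and D28 libraries correlated between -0.026 and 0.007 across genes, and a fit with a replicate block gave 1513 higher and 1517 lower genes. With low values raised to the 3-read level, the chemokine and cytokine list had 7 rises and the Notch list 2 falls. C1qa also lost its call with the 6 libraries of D7 and D28 alone, without the variance trend, with the study's own rule, with no filter and with low values raised. When 1 library was left out, list counts of 0 to 2 members moved by 1 member in several lists. These were the lists of growth plate, mineral handling, small leucine-rich proteoglycan, vitamin D, imprinted growth, glucocorticoid, secretory pathway and clock genes. The same held for cyclin D and CDK inhibitor, FGF, complement, macrophage, osteoclast, endothelial and epithelial genes. Fold changes of genes at or under 3 reads are limited by the read floor, and that of Col2a1 by the ceiling of the scale.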
